A study of Mus musculus with 25 samples.

Results

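Mouse hematopoietic stem cells carrying mutant JAK2 were compared between 4 weeks and 2 weeks after tamoxifen, using the 7 libraries of 25 whose genotype label is SclCre;V617F;GFP (called VF). The 3 libraries of 4 weeks are named VF_4w 5, 6 and 7, and the 4 libraries of 2 weeks VF_2w 1 to 4, after the numbers in their titles. The cells came from mice engrafted with donor bone marrow, tamoxifen switched on the mutant construct, and each marrow was sorted for Lin−Sca1+cKit+CD48−CD150+ cells, the surface phenotype of long-term stem cells. The same step in time was available for mutant donors labelled as knockouts of interleukin-1β (Il1bKO, SclCre;V617F;IL-1b-/-GFP) or its receptor (Il1r1KO, SclCre;V617F;IL-1R1-/-GFP), with 3 libraries of 4 weeks and 4 of 2 weeks each. Donors labelled WT (SclCre;GFP) were sampled at 2 weeks only, in 4 libraries. All donor labels carry the Scl-driven Cre and GFP, and the gate as labelled does not name GFP, so whether host cells or cells without the activated construct were sorted too was not tested. The labels state that the samples of 2 weeks and of 4 weeks were processed as 2 batches. Time after tamoxifen and processing batch therefore cannot be told apart in any value given here. No label ties a library to a named mouse, so the p-values measure the spread between these libraries, which may be technical. The question the comparison addresses is how mutant stem cells differ between an early and a slightly later time after the mutation is switched on.

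JAK2 is the kinase attached to the receptors for erythropoietin and granulocyte colony-stimulating factor, and its V617F form signals without ligand and drives myeloproliferative neoplasms. Downstream of such receptors, STAT5 and the MAP kinase route switch on genes within minutes, among them the immediate early genes, whose products include the FOS and JUN transcription factors. Most long-term stem cells rest outside the cell cycle, and leaving that resting state is known to go with more ribosome production, more mitochondrial respiration and DNA replication.

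RNA was amplified from polyA RNA without keeping the strand, and the values are counts of reads per gene, given here as CPM, counts scaled to library size with TMM factors. The VF_4w libraries held 26607966 to 31968194 counts and the VF_2w libraries 21990959 to 31488657. Log2 CPM correlated at r = 0.924 to 0.944 between VF_4w libraries and at 0.949 to 0.962 between VF_2w libraries. VF_4w 6 stood apart. In a principal component analysis of the VF libraries, component 1 (30.2% of variance) had VF_4w 6 at 96.8 and the other 6 between −25.0 and −3.67. That library had 139 genes at least 2-fold above, and 177 at least 2-fold below, each of the other VF libraries, counting genes that reached 5 CPM. Many list medians and some single genes that rest on it are given with and without it, and other differences are given only with it.

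The mutant construct was read in every VF library and its level did not separate the times. The first part of the human JAK2 coding sequence stood at 116, 108 and 115 CPM in VF_4w 5, 6 and 7, against 130, 113, 99.7 and 123 CPM in VF_2w 1 to 4. That is a log2 difference of −0.037 (exact two-sided permutation p = 0.8, where 3 against 4 libraries cannot go below 0.0571). The second part stood at 54.1, 60.8 and 43.6 CPM at 4 weeks, against 39.1, 51.4, 53.7 and 41.5 CPM at 2 weeks (log2 0.183, exact permutation p = 0.286). CreERT2, the tamoxifen-responsive Cre, gave 388, 195 and 225 CPM at 4 weeks and 243, 318, 311 and 277 CPM at 2 weeks (log2 −0.153, exact permutation p = 0.571). Its ranges overlapped, as did those of both JAK2 parts. The GFP sequence gave 489, 541 and 505 CPM at 4 weeks, all above the 469, 480, 476 and 462 CPM of 2 weeks (log2 0.116, exact permutation p = 0.0571, adjusted over the 4 constructs 0.229). In the libraries labelled WT, the JAK2 parts had at most 20 reads and CreERT2 had 1 read in all, although their label carries the Cre. Their GFP reads numbered 27442, 14960, 83 and 1345, so that WT_2w 3 and WT_2w 4 were low for a label that carries GFP. Il1b had 0 CPM in every library labelled Il1bKO. Il1r1 averaged 17.2 ± 7.23 CPM at 4 weeks and 25.9 ± 7.35 CPM at 2 weeks in the libraries labelled Il1r1KO, against 14.9 ± 5.65 and 16.5 ± 7.04 CPM in VF (SD, n = 3 at 4 weeks and 4 at 2 weeks). Reads of the targeted gene were thus not lower under the Il1r1KO label, and whether they come from a part of the gene outside the deletion was not tested.

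Stem cell surface genes that define the gate were present at both times. Kit, the stem cell factor receptor, stood at 734, 621 and 700 CPM at 4 weeks, against 795, 849, 1049 and 879 CPM at 2 weeks (log2 −0.38, edgeR quasi-likelihood, Benjamini-Hochberg adjusted p = 0.503). Its ranges did not overlap, and Kit was lower over the 3 mutant genotypes together (log2 −0.285, edgeR adjusted p = 0.0265). Slamf1, which encodes CD150, gave 71.2, 84.5 and 90.4 CPM against 74.5, 101, 89.3 and 68.5 CPM (log2 −0.02), with overlapping ranges. Ly6a, which encodes Sca1, gave 183, 444 and 152 CPM against 171, 181, 198 and 197 CPM (log2 0.48, and −0.154 without VF_4w 6). Cd48, which the gate excludes, was low and not overlapping, at 7.77, 10.02 and 5.15 CPM at 4 weeks and 2.09, 2.71, 3.19 and 3.17 CPM at 2 weeks (log2 1.45, adjusted p = 0.547). Over the 3 mutant genotypes together Cd48 passed the test (log2 1.81, adjusted p = 0.00393). Of the 19 gate and lineage markers listed, 13 were measured.

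Between the times, 3 of 13630 genes tested fell and 0 rose at an adjusted p under 0.05 in edgeR, which is 0.022% called lower and 0% called higher. At an unadjusted p under 0.05 there were 633 higher and 523 lower genes (4.64% and 3.84%). DESeq2 called 46 genes (13 higher, 33 lower) and limma voom with library weights 159 (85 higher, 74 lower). DESeq2 and voom shared 25 of these genes, 7 higher and 18 lower, and all 3 tools shared the 3 genes that edgeR called. The median log2 difference of all genes was −0.003. In bulk RNA, fewer cells of a kind and less RNA per cell cannot be told apart, which holds for each gene described here.

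The 3 genes that fell were Fos, Dusp1 and Zfp36, all members of the immediate early list. Fos (ENSMUSG00000021250, chr12:85473890-85477273 in mm10) encodes a transcription factor that pairs with JUN proteins as AP-1. It stood at 29.6, 14.3 and 27.2 CPM in the 4-week libraries, against 340, 271, 390 and 463 CPM in the 2-week libraries. Every 4-week library was far below every 2-week library. The means were 23.7 ± 8.27 CPM at 4 weeks and 366 ± 80.9 CPM at 2 weeks (SD, n = 3 and 4), a log2 difference of −3.95 (SE 0.52, edgeR adjusted p = 0.00103).

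Dusp1 (ENSMUSG00000024190, chr17:26505590-26562128) encodes a phosphatase that switches off MAP kinases, and it is itself induced by them. It stood at 85.2, 60.7 and 45.9 CPM at 4 weeks, against 232, 215, 291 and 353 CPM at 2 weeks. The groups did not overlap, and the log2 difference was −2.09 (SE 0.28, edgeR adjusted p = 0.00103). Zfp36 (ENSMUSG00000044786, chr7:28376784-28380253) encodes tristetraprolin, which binds AU-rich mRNAs and speeds their decay. It stood at 98.1, 82.9 and 84.97 CPM at 4 weeks, against 327, 273, 350 and 364 CPM at 2 weeks. The 3 late libraries lay close together and apart from the 4 early ones (log2 −1.89, SE 0.28, edgeR adjusted p = 0.00336). Without VF_4w 6, Zfp36 kept its size at −1.84 but missed the threshold (adjusted p = 0.0694). Fos and Dusp1 passed when each VF library was left out in turn (log2 −4.13 to −3.68 for Fos, −2.35 to −1.90 for Dusp1).

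Next to these came other AP-1 genes that missed the edgeR threshold. Fosb (chr7:19302696-19310051), a FOS relative, stood at 3.68, 3.98 and 5.65 CPM at 4 weeks, against 55.0, 38.6, 52.3 and 45.9 CPM at 2 weeks (log2 −3.43, SE 0.63, adjusted p = 0.0526). Jund, a JUN family member expressed also in resting cells, stood at 94.7, 123 and 110 CPM against 213, 232, 238 and 246 CPM (log2 −1.09, adjusted p = 0.0646). Jun itself stood at 26.0, 152 and 74.4 CPM against 387, 379, 495 and 411 CPM (log2 −2.31, adjusted p = 0.167). None of the 3 overlapped between the times, and DESeq2 and voom called each of them. Junb overlapped, at 155, 104 and 108 CPM against 171, 204, 153 and 148 CPM (log2 −0.46, adjusted p = 0.735).

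**Figure D1:**
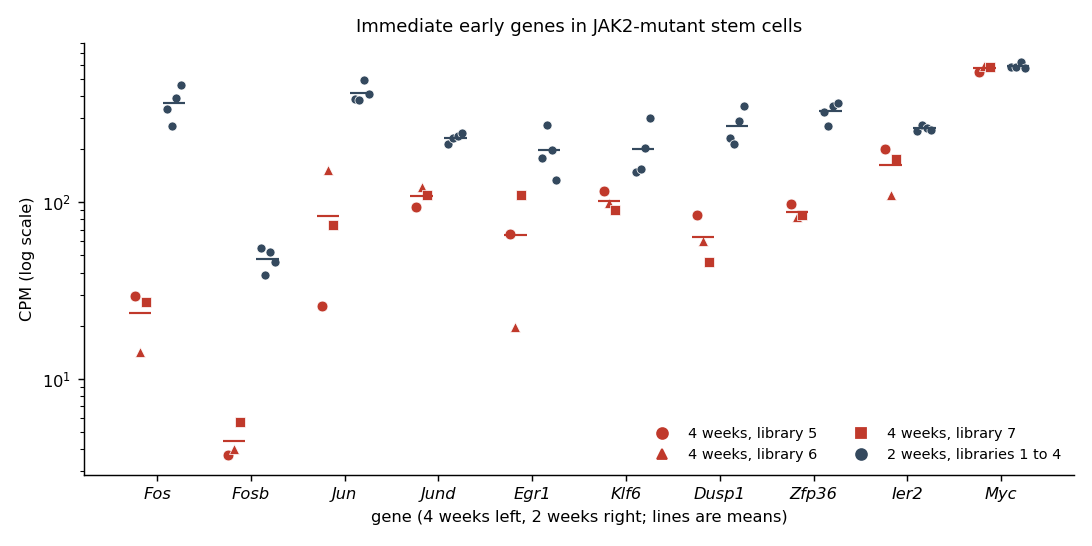
Level of immediate early genes in each VF library, in CPM on a log axis, with 4-week libraries (left of each gene, library 6 as a triangle) and 2-week libraries (right); lines are means. Fos lies at 14.3 to 29.6 CPM at 4 weeks and 271 to 463 CPM at 2 weeks, whereas Myc lies within 547 to 623 CPM at both times.

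Members of other early families were also lower in every 4-week library without passing the test. Egr1, a zinc finger factor known to hold stem cells at rest, stood at 66.3, 19.8 and 111 CPM at 4 weeks, against 180, 276, 198 and 135 CPM at 2 weeks (log2 −1.59, adjusted p = 0.383). Nr4a1, a nuclear receptor of the same response, gave 5.23, 5.86 and 7.15 CPM against 14.2, 19.7, 17.6 and 24.4 CPM (log2 −1.64, adjusted p = 0.498). Klf6 gave 116, 99.4 and 90.8 CPM against 148, 154, 203 and 302 CPM (log2 −0.99, adjusted p = 0.346). The highest late value and the lowest early value were close for Egr1 and Klf6 and further apart for Nr4a1. Ier2 stood at 202, 110 and 176 CPM against 253, 276, 265 and 259 CPM (log2 −0.70, adjusted p = 0.42). Dusp4, another MAP kinase phosphatase, stood at 9.14, 4.196 and 11.1 CPM against 19.3, 19.5, 32.5 and 19.7 CPM (log2 −1.48, adjusted p = 0.395). Myc, an early gene and a driver of cell growth, was level, at 547, 598 and 586 CPM against 586, 588, 623 and 579 CPM (log2 −0.04).

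Of the 45 immediate early genes listed, 40 were measured, and Egr2, Atf3, Nr4a3 and Ccn1 (listed also as Cyr61) were not measured here. Among the 40, 15 lay lower in all 4-week libraries than in any 2-week library and 0 lay higher, where 6.99% of all genes lay lower and 7.39% higher in this way. The median log2 difference of the 40 was −0.460, and 32 were below 0. Without VF_4w 6 the median was −0.477 and 19 of the 40 lay lower, against 12.2% of all genes. By family, 4 of 7 FOS and JUN genes lay lower without overlap (median −1.09), as did 3 of 4 EGR and NR4A genes (median −1.33). The MAP kinase phosphatases had 2 of 5 (median −0.363) and the mRNA decay factors, Zfp36l2 included, 1 of 5 (median −0.185). Summed over the 40 genes, the list stood at 2531, 2205 and 2386 CPM at 4 weeks, against 4009, 4085, 4427 and 4484 CPM at 2 weeks. The late mean was 55.8% of the early mean, and libraries labelled WT at 2 weeks summed to 3790 to 5725 CPM, the pair low in GFP included. Genes of this list are known to respond also to tissue handling and cell sorting, and the part of the batch in this difference cannot be told apart from that of time.

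The 250 bases before the start sites of the 3 genes that fell, and of Fosb, are shown because these genes were lower together. They are RefSeq promoters in the build GRCm38.p6, at chr12:85473640-85473889 (plus strand) for Fos, chr17:26508473-26508722 (minus strand) for Dusp1, chr7:28379229-28379478 (minus strand) for Zfp36 and chr7:19310046-19310295 (minus strand) for Fosb. Capitals mark matches, on either strand, to 6 motifs: the cAMP response element TGANNTCA, its half-site TGACG, the AP-1 site TGANTCA, the NF-kB motif (GGGA, any 4 bases, CC), the STAT-bound GAS element TTCNNNGAA and the interferon-response element (GAAA, any 2 bases, GAAA).
Fos: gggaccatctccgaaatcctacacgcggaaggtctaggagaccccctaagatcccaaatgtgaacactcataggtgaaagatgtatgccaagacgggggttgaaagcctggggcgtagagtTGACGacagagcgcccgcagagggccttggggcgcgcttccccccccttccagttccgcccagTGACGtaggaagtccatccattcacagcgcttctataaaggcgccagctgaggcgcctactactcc
Dusp1: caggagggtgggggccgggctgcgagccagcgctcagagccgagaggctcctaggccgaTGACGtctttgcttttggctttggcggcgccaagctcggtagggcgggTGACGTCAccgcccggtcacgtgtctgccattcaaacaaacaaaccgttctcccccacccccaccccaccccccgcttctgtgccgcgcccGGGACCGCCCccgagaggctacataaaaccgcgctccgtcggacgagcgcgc
Zfp36: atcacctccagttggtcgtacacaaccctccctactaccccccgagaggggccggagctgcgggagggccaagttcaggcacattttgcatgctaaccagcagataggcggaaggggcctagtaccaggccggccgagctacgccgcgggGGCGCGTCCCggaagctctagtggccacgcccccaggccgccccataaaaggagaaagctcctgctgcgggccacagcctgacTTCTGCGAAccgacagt
Fosb: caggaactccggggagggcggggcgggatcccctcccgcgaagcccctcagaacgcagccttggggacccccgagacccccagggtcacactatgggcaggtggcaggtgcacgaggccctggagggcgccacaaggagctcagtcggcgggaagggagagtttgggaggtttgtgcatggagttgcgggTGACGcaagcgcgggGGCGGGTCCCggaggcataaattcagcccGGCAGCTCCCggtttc
The Fos window held 2 half-sites and none of the other motifs. The Dusp1 window held 1 full cAMP response element, with 2 half-sites overlapping it, a separate half-site and 1 NF-kB match. Zfp36 held 1 GAS and 1 NF-kB match, and Fosb 2 NF-kB matches and 1 half-site. Among 32851 mouse promoters of this length, 17.8% held a half-site, 11.9% a full element, 17.6% an NF-kB match, 7.02% a GAS match, 6.75% an AP-1 match and 2.98% the interferon-response element. The half-site was added to the search after these sequences had been seen, and a match is a run of letters and not a measured binding site.

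The same genes were lower at 4 weeks in the libraries labelled Il1bKO and Il1r1KO, which are separate from those of VF. Fos averaged 17.1 CPM at 4 weeks and 497 CPM at 2 weeks in Il1bKO (log2 −4.87, edgeR adjusted p = 8.96e-05). In Il1r1KO it averaged 25.2 CPM and 323 CPM (log2 −3.68, adjusted p = 0.00174). Dusp1 fell by 2.14 and by 1.67 on the log2 scale in Il1bKO and Il1r1KO (adjusted p = 0.000509 and 0.00859), and Zfp36 by 2.31 and 2.00 (adjusted p = 0.000262 and 0.00174). In a fit of only the groups compared, Dusp1 missed the threshold in Il1bKO (0.0925) and Zfp36 in Il1r1KO (0.0511), and Dusp1 missed it in Il1r1KO without Il1r1KO_4w 5 (0.0757). Of the 40 early genes, 14 fell in Il1bKO and 12 in Il1r1KO, where 0.448% and 0.792% of all genes fell. That number ranged over the alternatives from 3 to 16 in Il1bKO, from 5 to 18 in Il1r1KO and from 2 to 7 in VF. The list medians were −0.694 in Il1bKO and −0.955 in Il1r1KO.

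Genes of oxidative phosphorylation lay slightly higher at 4 weeks across nearly the whole pathway, with none passing the test. This set holds the nuclear-encoded subunits of the respiratory chain and of ATP synthase. Of 76 measured, 39 lay higher in all 4-week libraries than in any 2-week library and 0 lay lower, where 7.39% and 6.99% of all genes did. Of the 76, 74 were above 0, and the median log2 difference was 0.220. The summed level was 12900, 14680 and 13240 CPM at 4 weeks, against 12330, 11670, 11530 and 12010 CPM at 2 weeks, so the groups did not overlap. Without VF_4w 6 the median was 0.187 and 43 lay higher, where 12.5% of all genes did. Complex I had 24 of 37 members (median 0.228) and ATP synthase 7 of 14 (median 0.196), with 3 of 9 in complex III, 4 of 11 in complex IV and 1 of 4 in complex II. Ndufv2, a core subunit of complex I, stood at 214, 256 and 237 CPM against 186, 183, 164 and 194 CPM (log2 0.37, adjusted p = 0.494). Cox5b of cytochrome oxidase stood at 77.5, 97.5 and 86.0 CPM against 70.3, 65.4, 62.8 and 66.4 CPM (log2 0.39, adjusted p = 0.499). The 12 measured genes of the mitochondrial genome did not move with them, with a median of 0.004 and 6 above 0.

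The knockouts gave larger medians for this pathway, 0.335 in Il1bKO and 0.472 in Il1r1KO. Members that rose numbered 2 in Il1bKO and 25 in Il1r1KO, where 0.301% and 1.67% of all genes rose. Without Il1r1KO_4w 5, whose sum of 20100 CPM is the highest, 0 genes of any kind were called higher in Il1r1KO, and without Il1bKO_4w 5 there was 1 in Il1bKO. In the mean over the 3 mutant genotypes 65 of 76 rose, where 8.53% of all genes did. That mean includes the VF libraries and is therefore not separate from the VF values, which holds wherever it is given. Whether the VF difference in this pathway differs from that of the knockouts was tested gene by gene, and 0 members were called.

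Genes of ribosomes and their production lay higher by smaller amounts. Of 82 ribosomal protein genes, 35 lay higher without overlap and 2 lower, 75 were above 0, and the median was 0.138, where 7.39% of all genes lay higher. With upper-quartile scaling 22 lay higher (median 0.115), against 6.11% of all genes, and without VF_4w 6 there were 56 (median 0.170), against 12.5%. Rpl22l1, a paralog of Rpl22, was one of the 2 lower, at 69.3, 72.0 and 69.7 CPM at 4 weeks, against 87.3, 96.2, 86.4 and 94.6 CPM at 2 weeks (log2 −0.37, adjusted p = 0.576). Many ribosomal protein genes have near-identical pseudogenes, so their counts are uncertain. Among 69 genes of MYC targets and ribosome biogenesis, 14 lay higher and 1 lower, 62 were above 0, and the median was 0.168. Ncl, which encodes the nucleolar protein nucleolin, stood at 1247, 1541 and 1431 CPM against 1259, 1049, 1093 and 1124 CPM (log2 0.31, adjusted p = 0.461). Only VF_4w 5 lay within the early range. Without that library 36 of the 69 lay higher (median 0.236), where 14.4% of all genes did. Leaving out VF_4w 6 instead gave 15 higher and 2 lower (median 0.11), where 12.5% of all genes lay higher.

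**Figure D2:**
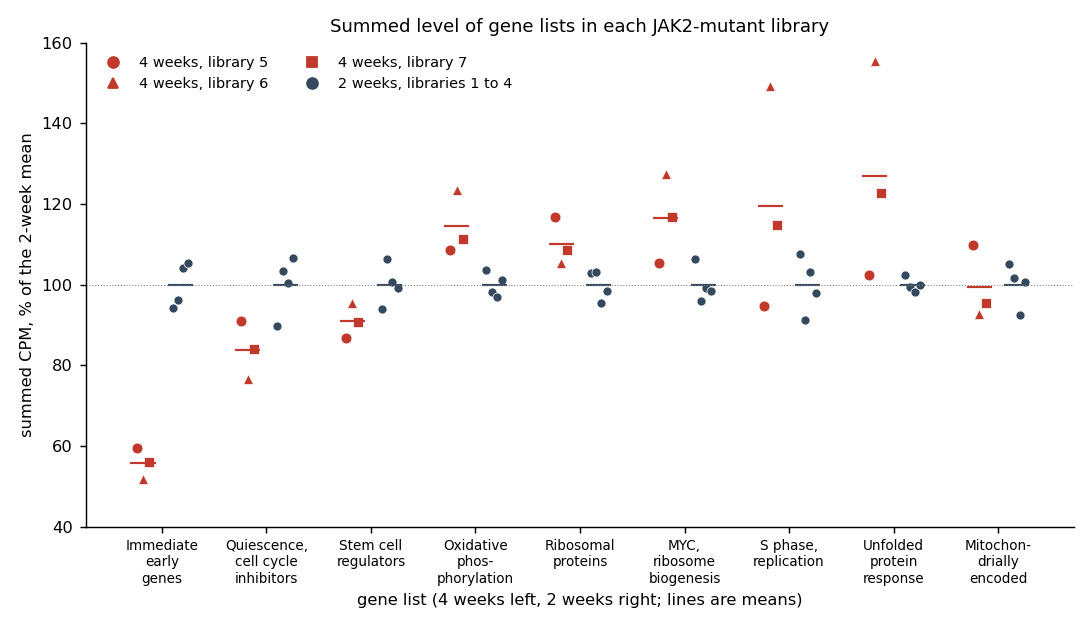
Summed CPM of 9 gene lists in each VF library, as a percentage of the 2-week mean of that list, with 4-week libraries at the left and 2-week libraries at the right of each list; lines are means. Immediate early genes sit at 55.8% on average at 4 weeks, oxidative phosphorylation lies above all 2-week libraries, and in S phase and the unfolded protein response VF_4w 6 is highest.

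Genes of DNA replication pointed the same way but hung on single libraries. Of 60 S phase genes, 59 were above 0, 8 lay higher without overlap and 0 lower, and the median was 0.286, where 7.39% of all genes lay higher. Without VF_4w 6 the median was 0.091, with 8 higher, a share near the 12.5% of all genes. Without VF_4w 5 it was 0.442, with 38 higher, against 14.4% of all genes. Pcna, the sliding clamp of the replication fork, stood at 158, 189 and 175 CPM at 4 weeks, against 156, 119, 125 and 140 CPM at 2 weeks (log2 0.37, adjusted p = 0.518). The 6 MCM genes of the replicative helicase all had positive differences (0.04 to 0.38) with overlapping libraries. Mcm2, for example, gave 212, 450 and 306 CPM against 298, 207, 249 and 238 CPM (log2 0.38, adjusted p = 0.706). Of 79 mitotic genes, 62 were above 0, 2 lay higher without overlap, and the median was 0.160. That median turned to −0.090 without VF_4w 6, with 2 higher and 6 lower. Mki67, the proliferation antigen, overlapped at 172, 270 and 201 CPM against 208, 173, 206 and 209 CPM (log2 0.11, adjusted p = 0.956). Called genes in the knockouts were 12 S phase and 25 mitotic genes higher in Il1r1KO and 0 of either in Il1bKO, where 1.67% and 0.301% of all genes were. Without Il1r1KO_4w 5, whose mitotic sum was 16180 CPM, none remained in Il1r1KO. In the mean of all 3 genotypes, 36 of 60 and 42 of 79 rose, where 8.53% of all genes did.

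Stem cell regulators had a median slightly below 0 at 4 weeks. Of 62 measured, 8 lay lower without overlap and 1 higher, 41 were below 0, and the median was −0.166, where 6.99% of all genes lay lower. Without VF_4w 6 the median was −0.121 with 12 lower, against 12.2% of all genes. The number lower was 17 without VF_4w 5 and 17 without VF_4w 7, where 13.4% and 12.2% of all genes lay lower. Mecom, a transcription factor needed for long-term stem cells, stood at 224, 146 and 264 CPM at 4 weeks, against 277, 364, 322 and 424 CPM at 2 weeks (log2 −0.71, SE 0.19, adjusted p = 0.32). Prdm16, its relative, stood at 30.6, 26.7 and 35.3 CPM against 61.0, 54.3, 54.7 and 37.8 CPM (log2 −0.75, adjusted p = 0.498). VF_2w 4 came close to the late values for Prdm16, and VF_2w 1 did for Mecom. Lmo2, a bridging factor of the stem cell transcription complex, stood at 856, 1073 and 899 CPM against 1189, 1198, 1265 and 1232 CPM (log2 −0.37, adjusted p = 0.364). Its difference was −0.04 in Il1bKO and 0.08 in Il1r1KO, neither past the test. Mecom fell in Il1r1KO (log2 −1.09, adjusted p = 0.0127) and in the mean of the 3 genotypes (log2 −0.80, adjusted p = 0.000156). The others that lay lower were Esam, Kit, Alcam, Myct1 and Hoxa5.

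Itga2b, which encodes the platelet integrin CD41, was the 1 stem cell list member that lay higher. It stood at 288, 690 and 214 CPM at 4 weeks, against 99.0, 176, 175 and 97.8 CPM at 2 weeks (log2 1.54, SE 0.42, adjusted p = 0.364). VF_4w 6 was the highest, but VF_4w 5 and VF_4w 7 also exceeded each early library. In the knockouts its differences were −0.28 and 0.42, neither past the test.

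Of 34 quiescence genes and cell cycle inhibitors, 6 lay lower without overlap (Egr1, Tsc2, Nr4a1, Tob1, Nr4a2 and Hipk2) and 1 higher (Cdkn2d), with a median of −0.163, where 6.99% of all genes lay lower and 7.39% higher. Of these 6, Egr1, Nr4a1 and Nr4a2 also stand in the immediate early list. Tsc2, an inhibitor of the growth kinase mTOR, stood at 48.0, 38.8 and 39.3 CPM at 4 weeks, against 54.2, 66.8, 78.9 and 60.9 CPM at 2 weeks (log2 −0.63, adjusted p = 0.47). Cdkn2d, an inhibitor of the cyclin D kinases, stood at 99.4, 85.5 and 77.6 CPM against 63.9, 66.3, 66.9 and 69.1 CPM (log2 0.39, adjusted p = 0.498). Cdkn1c, the p57 inhibitor typical of resting stem cells, overlapped at 51.1, 17.1 and 40.8 CPM against 39.4, 61.5, 61.8 and 54.1 CPM (log2 −0.58, adjusted p = 0.636). Over the 3 genotypes Cdkn1c fell (log2 −0.75, adjusted p = 0.00787), and 13 of the 34 fell in all, where 5.82% of all genes did.

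Genes of the JAK and STAT route, listed together with other cytokine receptors, gave 0 calls in VF, and the differences were small or overlapping for most. Endogenous Jak2 stood at 103, 110 and 117 CPM at 4 weeks, against 82.0, 111, 102 and 117 CPM at 2 weeks (log2 0.10, adjusted p = 0.941). The STAT5 targets Socs2 and Cish, which restrain the pathway, had differences of −0.32 and −0.46 (adjusted p = 0.798 and 0.786), and Pim1, a survival kinase, had 0.59 (adjusted p = 0.535). Of 27 STAT5 targets and JAK feedback genes, 3 lay higher and 3 lower without overlap, with a median of 0.062. Among 37 kinases, STATs and cytokine receptors, 0 lay higher and 7 lower, with a median of −0.150 (−0.045 without VF_4w 6). Kit is one of these 7 and was also counted among the stem cell regulators. Of all genes, 7.39% lay higher and 6.99% lower. Tyk2, a JAK family kinase of the interferon receptors, stood at 43.5, 39.5 and 38.8 CPM against 77.8, 62.0, 81.0 and 78.6 CPM (log2 −0.88, adjusted p = 0.46). Csf3r, the granulocyte colony-stimulating factor receptor, stood at 55.1, 31.7 and 55.5 CPM against 92.8, 63.9, 95.1 and 67.5 CPM (log2 −0.75, adjusted p = 0.509). Csf2ra, a chain of the receptor for granulocyte-macrophage colony-stimulating factor, stood at 43.5, 42.2 and 41.3 CPM against 47.9, 64.7, 76.1 and 57.4 CPM (log2 −0.54, adjusted p = 0.383). These 3 differences lay between −0.14 and 0.34 in the knockouts. Cish fell in the mean over the 3 genotypes (log2 −0.89, edgeR adjusted p = 0.00858). In that mean 3 STAT5 targets and feedback genes rose and 3 fell. Of the kinases, STATs and receptors, 1 rose and 6 fell there, where 8.53% of all genes rose and 5.82% fell.

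Genes of the IL-1 pathway did not separate the times. Of 25 measured, 0 lay higher or lower without overlap, and the median was −0.034 (0.07 without VF_4w 6). Il1b, the cytokine itself, was nearly silent, at 0.721, 14.1 and 0.0312 CPM at 4 weeks, against 0, 0.936, 0.156 and 0.271 CPM at 2 weeks (log2 3.84, SE 1.69, adjusted p = 0.547). VF_4w 6 had 391 reads of Il1b, and VF_4w 5 and VF_4w 7 had 19 and 1, so that fitted difference rests on 1 library and was 0.13 without it. Il1r1, the receptor, stood at 20.7, 9.48 and 14.4 CPM against 20.2, 13.04, 24.3 and 8.59 CPM (log2 −0.15, adjusted p = 0.977). Of 38 NF-kB and TNF targets, 4 lay lower without overlap and 0 higher, near the 6.99% of all genes that lay lower. Their median of 0.091 turned to −0.029 without VF_4w 6 and −0.050 without VF_4w 5. The clearest was Nfkbiz, an inducible nuclear IκB protein, at 16.7, 10.3 and 8.71 CPM against 30.7, 24.6, 34.4 and 39.2 CPM (log2 −1.44, SE 0.34, adjusted p = 0.217). Nfkbiz fell in Il1r1KO (log2 −1.76, adjusted p = 0.0191).

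Interferon and antigen presentation genes were high in VF_4w 6 and not in the other late libraries. The 41 interferon gamma genes summed to 5379, 21100 and 5781 CPM in VF_4w 5, 6 and 7, against 5189 to 6075 CPM at 2 weeks, and 27 of them were at least 2-fold above all other VF libraries in VF_4w 6. Their median log2 difference was 0.764, with 6 higher and 0 lower, where 7.39% of all genes lay higher and 6.99% lower. Without VF_4w 6 it was −0.124, with 6 higher and 13 lower, where 12.5% of all genes lay higher and 12.2% lower. The 56 type I interferon genes had a median of 0.11, and −0.360 without VF_4w 6, with 1 higher and 21 lower against the same shares. MHC class II genes summed to 576, 3081 and 580 CPM against 556 to 938 CPM, and Cd74, the class II invariant chain, stood at 78.6, 1089 and 117 CPM against 117, 117, 253 and 144 CPM.

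Of the 6 interferon gamma genes that lay higher in all 4-week libraries, 4 encode parts of the immunoproteasome, and the others were Gbp6 and Serpina3f. Psmb10, one of its catalytic subunits, stood at 183, 316 and 170 CPM at 4 weeks, against 148, 152, 151 and 153 CPM at 2 weeks (log2 0.56, SE 0.16, adjusted p = 0.364). Psmb9 stood at 219, 444 and 219 CPM against 189, 198, 214 and 202 CPM (log2 0.55, adjusted p = 0.461). Psme1 and Psme2, the subunits of its activator, had differences of 0.33 and 0.51. VF_4w 5 and VF_4w 7 exceeded the early libraries by little for Psmb9 and Psme1. All 4 rose in the mean over the 3 genotypes (log2 0.29 to 0.46, adjusted p = 0.00608 to 0.02), which includes the VF libraries by which they were picked.

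**Figure D3:**
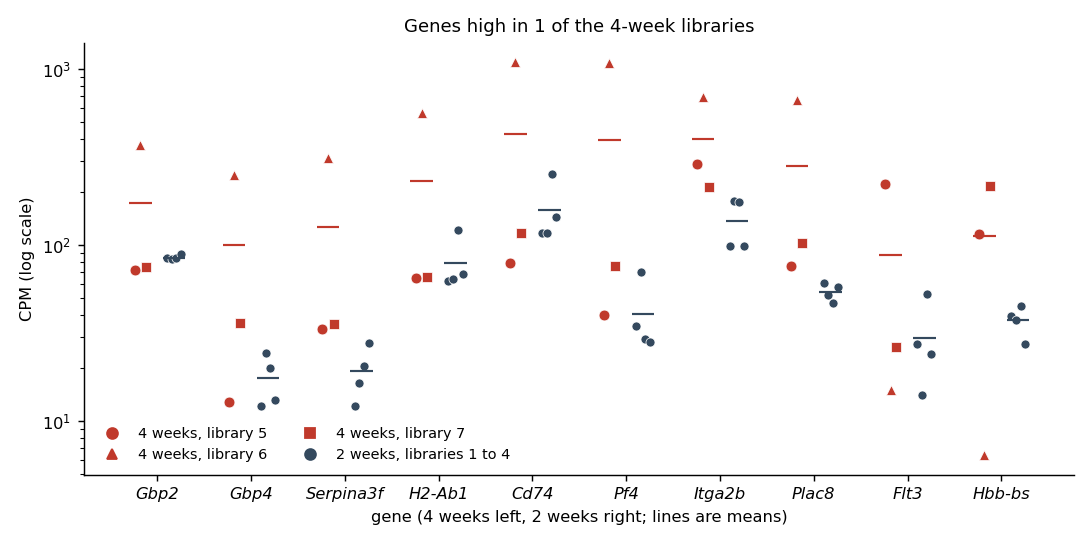
Level of genes that are high in 1 or more of the 4-week libraries, in CPM on a log axis for each VF library, with 4-week libraries at the left and 2-week libraries at the right of each gene and lines at the means. Hbb-bs is high in VF_4w 5 and VF_4w 7, and Itga2b is above all 2-week libraries in each 4-week library. VF_4w 6 (triangle) is far above the rest for Cd74 (1089 CPM) and Pf4 (1073 CPM), and VF_4w 5 (circle) is for Flt3 (220 CPM).

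VF_4w 6 also carried megakaryocyte genes. That list summed to 4179, 9511 and 4953 CPM in VF_4w 5, 6 and 7, against 4308 to 5585 CPM at 2 weeks, with a median difference of 0.386 over 39 genes and 0.015 without VF_4w 6. Pf4, a platelet chemokine, stood at 39.8, 1073 and 75.8 CPM at 4 weeks, against 34.6, 70.3, 29.1 and 28.0 CPM at 2 weeks (log2 3.29, SE 0.78, adjusted p = 0.217). VF_4w 5 was inside the early range and VF_4w 7 just above it, and the difference was 0.51 without VF_4w 6 (adjusted p = 0.986). Among the 36 defining markers of other blood, stromal and liver cells, 16 were tested, 20 were not tested here, and 0 of the 16 were at 0 in all VF libraries. They summed to 270, 1250 and 773 CPM at 4 weeks, against 263, 268, 209 and 157 CPM at 2 weeks. The sums rest on a few members. Of the 16, 7 were above 0 and 9 below 0, and the median log2 difference was −0.328 (0.002 without VF_4w 6). Different late libraries led in different genes. Beside Pf4 in VF_4w 6, Hbb-bs, a beta-globin gene of red cells, stood at 115, 6.37 and 217 CPM against 39.2, 37.4, 44.8 and 27.2 CPM. Prss34, a basophil protease, stood at 0, 0.289 and 44.8 CPM against 0.449, 0, 0 and 0 CPM. Flt3, a receptor of multipotent progenitors that is not in this marker list, stood at 220, 15.0 and 26.1 CPM against 27.1, 13.9, 52.4 and 24.01 CPM. The part of such cells in the differences described here was not tested.

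Protein folding genes of the endoplasmic reticulum were among the genes with the smallest p in the upward direction. Manf, a secreted stress-induced factor, stood at 125, 238 and 173 CPM at 4 weeks, against 116, 104, 93.6 and 97.9 CPM at 2 weeks (log2 0.80, SE 0.17, adjusted p = 0.113). Dnajc3, a co-chaperone and inhibitor of the stress kinases, stood at 211, 331 and 248 CPM against 181, 177, 180 and 178 CPM (log2 0.56, SE 0.13, adjusted p = 0.217). Selenos stood at 138, 117 and 114 CPM against 83.9, 80.8, 67.2 and 87.8 CPM (log2 0.62, adjusted p = 0.383). None of the 3 overlapped, and DESeq2 and voom called Manf and Dnajc3. The chaperone Hspa5 overlapped through VF_4w 5, at 751, 1716 and 1098 CPM against 805, 707, 646 and 689 CPM (log2 0.74, adjusted p = 0.364). Over the list of 32 measured genes, 5 lay higher without overlap (also Pdia6 and Herpud1), 2 lower (Sesn2 and Ppp1r15a), and the median was 0.308, where 7.39% of all genes lay higher. It was 0.097 without VF_4w 6, with 8 higher against 12.5% of all genes, and 15 lay higher without VF_4w 5 against 14.4%. Without VF_4w 6 the difference was 0.54 for Manf and 0.36 for Dnajc3. The list medians in Il1bKO and Il1r1KO were −0.012 and −0.065. Manf differed there by 0.31 and 0.43 (edgeR adjusted p = 0.309 and 0.142), and Dnajc3 by −0.11 and −0.008. In the mean over the 3 genotypes Manf rose (log2 0.51, edgeR adjusted p = 0.0021) and Dnajc3 did not pass (0.198).

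Sterol and fatty acid synthesis genes had a median below 0. Of 37, 30 were below 0, 4 lay lower without overlap (Sc5d, Mvd, Insig1 and Tm7sf2) and 0 higher, and the median was −0.238, where 6.99% of all genes lay lower. Without VF_4w 6, which was near the early level, 18 lay lower, against 12.2% of all genes, and the median was −0.368. The list summed to 2534, 3514 and 2908 CPM at 4 weeks, against 3140 to 3808 CPM at 2 weeks. Sc5d, a sterol desaturase, stood at 62.3, 63.2 and 51.6 CPM against 83.3, 83.1, 82.1 and 87.4 CPM (log2 −0.51, SE 0.15, adjusted p = 0.364), with a narrow early range well above all late libraries. Its differences in the knockouts were −0.11 and 0.09. Insig1, a sterol sensor, stood at 67.9, 66.9 and 58.9 CPM against 78.6, 91.1, 102 and 103 CPM (log2 −0.54, adjusted p = 0.514) and fell in the mean over the 3 genotypes (log2 −0.61, adjusted p = 0.0033).

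The 10 genes of lowest unadjusted p in each direction were also named, and beyond the 3 called none passed the edgeR test. Upward, beside Manf, Dnajc3 and Pf4, these were Serpina3f, Nudt19, Plac8, Gbp6, Hnrnpa3, Rbm3 and Brd3. Nudt19, a peroxisomal coenzyme A hydrolase, was even within each group, at 118, 111 and 105 CPM at 4 weeks, against 70.4, 66.7, 78.7 and 67.8 CPM at 2 weeks (log2 0.65, SE 0.14, adjusted p = 0.141). Rbm3, an RNA-binding protein induced by cold, stood at 335, 241 and 260 CPM against 198, 161, 159 and 184 CPM (log2 0.67, SE 0.16, adjusted p = 0.253). Both rose in the mean over the 3 genotypes (adjusted p = 0.00131 for Nudt19 and 0.00135 for Rbm3), which includes the VF libraries that picked them. In Il1bKO and Il1r1KO alone, Nudt19 differed by 0.36 and 0.43 and Rbm3 by 0.65 and 0.37, none past the test. Serpina3f, an interferon-induced serpin, stood at 33.3, 312 and 35.3 CPM against 12.1, 16.3, 20.5 and 27.5 CPM (log2 2.73, SE 0.55, adjusted p = 0.107). Gbp6, a guanylate-binding protein, stood at 17.9, 320 and 75.2 CPM against 16.4, 12.5, 6.38 and 12.4 CPM (log2 3.53, SE 0.82, adjusted p = 0.217). Plac8 stood at 75.8, 661 and 102 CPM against 60.2, 51.9, 46.6 and 57.9 CPM (log2 2.37, adjusted p = 0.167). VF_4w 6 was highest by far for these last 3, though the other late libraries were also above all early ones. Without it the differences were 0.85 for Serpina3f, 1.97 for Gbp6 and 0.72 for Plac8 (adjusted p = 0.864, 0.857 and 0.926).

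Downward, beside Fos, Dusp1, Zfp36, Fosb, Jund and Jun, the rule named Tox, Hist1h2bg, Mib2 and Rnpep. Tox, a DNA-binding factor known from lymphoid development, stood at 31.6, 16.0 and 20.5 CPM at 4 weeks, against 69.4, 86.1, 66.6 and 100 CPM at 2 weeks (log2 −1.83, SE 0.37, adjusted p = 0.107). It fell in Il1r1KO (log2 −1.61, adjusted p = 0.0317), while its difference in Il1bKO was −0.26 (adjusted p = 0.72). Hist1h2bg, an H2B histone gene, stood at 2.996, 7.23 and 5.15 CPM against 13.2, 20.0, 16.1 and 23.2 CPM (log2 −1.82, SE 0.38, adjusted p = 0.113). Mib2, a ubiquitin ligase of Notch ligands, stood at 36.4, 33.3 and 30.6 CPM against 56.4, 65.5, 53.5 and 53.4 CPM (log2 −0.78, SE 0.17, adjusted p = 0.167). Rnpep, an aminopeptidase, had a difference of −0.69 (adjusted p = 0.217). None of these overlapped between the times, and DESeq2 and voom called all 4.

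The step in time was then set beside that of the knockouts across all genes. edgeR called 41 genes higher and 61 lower in Il1bKO, and 227 higher and 108 lower in Il1r1KO. The balance of directions turned in Il1r1KO to 23 higher and 96 lower without the 3 libraries that stand apart (VF_4w 6, Il1bKO_4w 5 and Il1r1KO_4w 5), and in Il1bKO to 69 higher and 34 lower with voom. Of the genes that rose in Il1r1KO, 215 of 227 (94.7%) were above 0 in VF, where 49.6% of all genes were, and their median VF difference was 0.247 against 0.645 in Il1r1KO. Of those that fell in Il1r1KO, 93 of 108 (86.1%) were below 0 in VF, where 50.4% of all genes were. Of the genes called in Il1bKO, 37 of 41 that rose (90.2%) were above 0 in VF and 47 of 61 that fell (77%) were below 0. The calls in the knockouts were not steady, numbering 8 to 516 in Il1bKO and 10 to 827 in Il1r1KO when single libraries were left out. Both lowest counts came without a 4-week library that stands apart, with 1 higher and 7 lower without Il1bKO_4w 5 and 0 higher and 10 lower without Il1r1KO_4w 5.

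**Figure D4:**
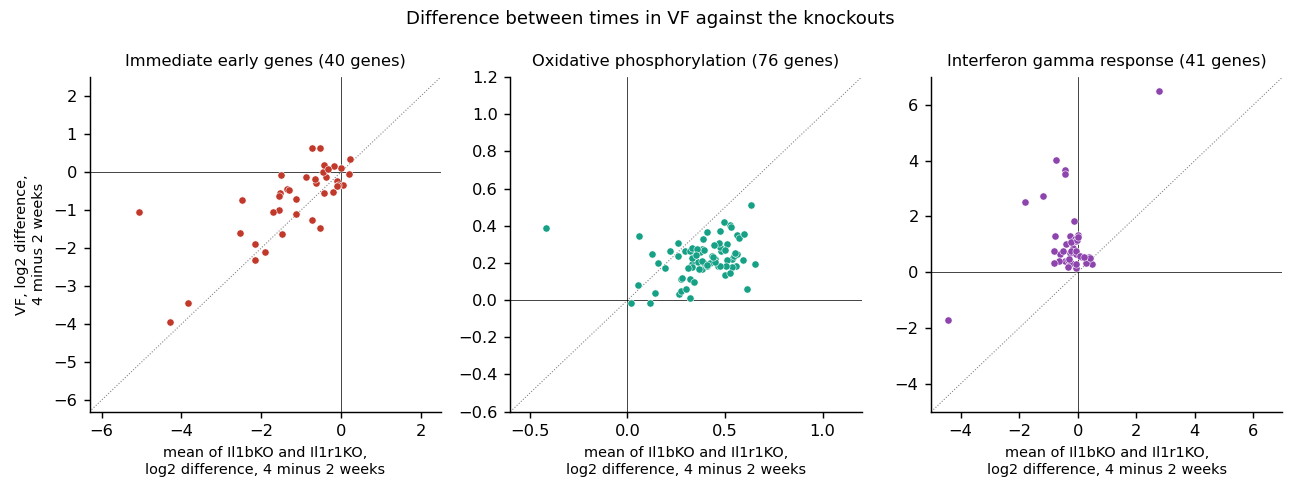
Log2 difference, 4 weeks minus 2 weeks, in VF (vertical) against the mean of Il1bKO and Il1r1KO (horizontal), 1 point per gene, in panels for 40 immediate early, 76 oxidative phosphorylation and 41 interferon gamma genes; the dotted line marks equal differences. Most early genes lie below 0 on both axes, and most respiratory genes above 0 on both. Interferon gamma genes lie above 0 in VF (median 0.764, and −0.124 without VF_4w 6), with medians of −0.336 and −0.158 in the knockouts.

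A direct test of the VF difference against the mean difference of the 2 knockouts called 0 genes in edgeR, with 964 at an unadjusted p under 0.05 (7.07%), whereas DESeq2 called 37 and voom 37. A p above the threshold does not show that the genotypes changed alike. The lowest p belonged to Serpina3f (log2 3.93, edgeR adjusted p = 0.0821), which VF_4w 6 dominates. In the mean over the 3 mutant genotypes, 1163 genes rose and 793 fell (8.53% and 5.82%), with a median of all genes of −0.033. The 3 genes called in VF fell there (edgeR adjusted p = 2.31e-08 for Fos, 8.6e-08 for Dusp1 and 6.11e-08 for Zfp36). The VF libraries by which they were chosen are part of that mean, so it is not separate support. The first JAK2 part was lower in that mean (log2 −0.260, exact permutation within genotype p = 0.009, adjusted over the 4 constructs 0.036), with −0.390 in Il1bKO, −0.354 in Il1r1KO and −0.037 in VF.

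**Figure D5:**
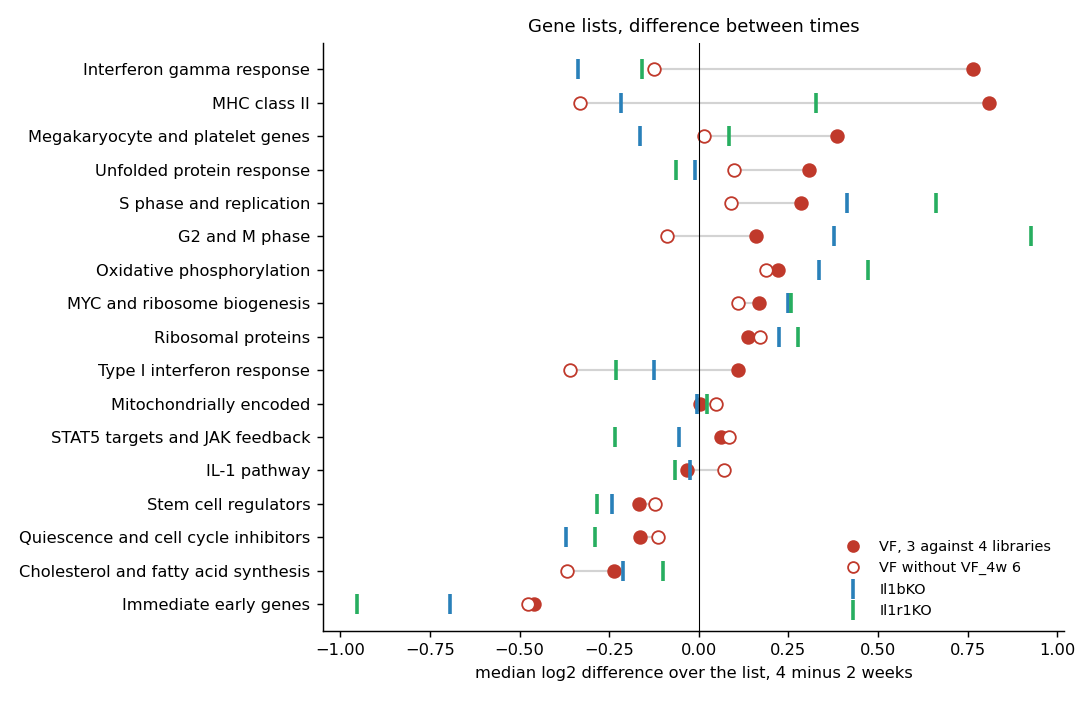
Median log2 difference, 4 weeks minus 2 weeks, of each gene list in VF (filled circles), in VF without VF_4w 6 (open circles) and in the knockouts (ticks); the vertical line marks 0. Immediate early genes lie at −0.460 in VF with VF_4w 6 and −0.477 without it, while interferon gamma genes lie at 0.764 and −0.124.

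The remaining lists had 0 called members in VF. Counts higher or lower are of members without overlap, where 7.39% of all genes lay higher and 6.99% lower. Heat shock and chaperone genes had a median of 0.130 over 26 genes and −0.141 without VF_4w 6. Glycolysis and hypoxia genes had 2 higher and 2 lower of 36 (median 0.054), p53 targets 0 higher and 2 lower of 32 (median −0.033), and MHC class I genes 5 higher of 26 (median 0.248, and −0.004 without VF_4w 6). These 5 include the immunoproteasome genes Psmb9, Psmb10, Psme1 and Psme2, already counted in the interferon gamma list. Erythroid genes had 4 higher and 3 lower of 55 (median 0.021, and −0.082 without VF_4w 6). Neutrophil and monocyte genes had 2 higher and 6 lower of 46 (median −0.212, and 0.059 without VF_4w 6). Mast, basophil and eosinophil genes had a median of 0.549 over 17, macrophage and dendritic genes −0.147 over 21, B lineage genes −0.422 over 12, T and NK genes −0.200 over 13, and endothelial and stromal genes −0.226 over 24. Without VF_4w 6 these medians were, in the same order, 0.35, −0.015, −0.355, −0.119 and −0.416.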

How the data were processed

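Counts of reads per gene, deposited by the authors for 25 libraries, were used as given. Per the labels' protocols, RNA was extracted with PicoPure and unstranded libraries were made with SMART-Seq v4, so reads of overlapping genes on opposite strands cannot be told apart. Tools listed in the submitters' processing notes are featureCounts (no version), STAR 2.7.10a, FastQC 0.11.5 and R 4.2.2, with mm10 as the build. Symbols and gene positions came from GENCODE vM21 and promoters from RefSeq.

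In R 4.3.3, edgeR 4.0.16 (TMM scaling, filterByExpr, robust quasi-likelihood fit) fitted 7 groups over all 25 libraries. It kept 13630 of 13641 genes, with p adjusted by Benjamini-Hochberg over all of them and a threshold of 0.05. The 4 constructs were compared by exact permutation of log2(CPM + 0.5) in scipy 1.17.1. Alternatives were DESeq2 1.42.0, voom in limma 3.58.1, other scaling and filters, and leaving out libraries. The pipeline was tested on simulated data, where it recovered 63 of 100 genes changed by a log2 of 1 and 94 of 100 changed by 2. It also called 7 unchanged genes, and no simulated library was made to stand apart. The libraries, gene lists, gene rule and alternatives were chosen with earlier results of these data known. Named were 10 fixed genes (1 more is not reported here), called genes, and the 10 genes of lowest p per direction. List examples were chosen after their values were seen.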

Additional observations from a re-analysis of the deposited data

Results flagged for a closer look

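Within the 4 libraries of 2 weeks, 66 values (each of a named gene, a list sum or a construct) were checked for 1 library far from the other 3 by Dixon's criterion, and 4 were found, where chance gives about 1 in 20. The MHC class II genes summed to 937.8 CPM in VF_2w 3, and to 556 to 578 CPM in the others. VF_2w 2 was high in the other 3 cases. Pf4 was at 70.31 CPM there against 28.0 to 34.6 CPM, the megakaryocyte and platelet genes summed to 5585 CPM against 4308 to 4494 CPM, and the T and NK genes summed to 175.4 CPM against 154 to 157 CPM. The groups of 3 libraries at 4 weeks were not checked in this way.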

How the results depend on the processing

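The number of genes called between the times in VF was 3, and 46 with DESeq2, 159 with voom, 5 with a filter of CPM 5 in 3 libraries, 6 in a fit of VF alone, 14 without the 3 libraries that stand apart (VF_4w 6, Il1bKO_4w 5 and Il1r1KO_4w 5), and 2 to 8 when each VF library was left out. It was 8 without VF_4w 5 (5 higher, 3 lower) and 2 without VF_4w 6. For Il1bKO it was 102, and 607 with DESeq2, 4 in a fit of that genotype alone, and 8 to 516 with libraries left out. For Il1r1KO it was 335, and 929 with DESeq2, 518 with voom, 39 in a fit of that genotype alone, 119 without the 3 libraries, and 10 to 827 with libraries left out. For VF minus the knockouts it was 0, and 37 with DESeq2, 37 with voom, 25 without the 3 libraries, and 0 to 2 with libraries left out. The count of 1956 for the mean of the 3 genotypes stayed within 1.5-fold in all alternatives. Signs turned for Il1b (voom −0.527), for Il1r1 (voom 0.043, without the 3 libraries 0.089, with libraries left out −0.467 to 0.093), for Ly6a (voom −0.071, without the 3 libraries −0.154, with libraries left out −0.154 to 0.748) and for Slamf1 (voom 0.068, with libraries left out −0.104 to 0.083). They also turned for CreERT2 (with libraries left out −0.450 to 0.047) and JAK2 part 1 (−0.109 to 0.020) in VF, and, by library total over the 3 genotypes, for JAK2 part 2 (−0.014) and CreERT2 (−0.038). The causes were not tested, and none of these passed a test. No paired analysis was possible because the library numbers of the times (1 to 4 and 5 to 7) do not overlap, and number did not pair genotypes (r of deviations −0.148 to 0.0526 over 14 pairs). With the replicate number as a block, VF minus the knockouts still called 0 genes (862 at an unadjusted p under 0.05). The depth of 21990959 to 31968194 counts per VF library limits genes of few reads, such as Il1b.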
